A study of Mus musculus with 10 samples.

Results

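Levels of 7 voltage-gated sodium channel subunit genes, 4 alpha and 3 beta, were followed in mouse hippocampus after status epilepticus (SE). They were chosen from the 15900 genes with a CPM value by their gene symbols. All 7 passed the filter on low values, as did 15851 genes in all. Neurons fire because voltage-gated sodium channels open when the membrane is depolarized. Each channel has a large pore-forming alpha subunit and smaller beta subunits, which tune gating, carry the channel to the membrane and act as cell adhesion molecules. In the hippocampus, *Scn1a* encodes Nav1.1, which is prominent in inhibitory interneurons, *Scn2a1* (now *Scn2a*) encodes Nav1.2 and *Scn8a* encodes Nav1.6, both found at the axon initial segment of excitatory neurons, and *Scn3a* encodes Nav1.3, which is best known from the developing brain. *Scn2b*, *Scn3b* and *Scn4b* encode the beta2, beta3 and beta4 subunits. Variants in the alpha subunit genes cause inherited epilepsies, and several anti-epileptic drugs act on the channels, whereas levetiracetam (LEV) is known to bind the synaptic vesicle protein SV2A.

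The libraries came from cap analysis of gene expression (CAGE), which sequences the capped 5′ ends of transcripts, so that 1 tag stands for 1 transcript whatever its length. The CPM of different genes can be compared only as far as the tags of their starts were assigned to their rows, which is not described in the sources used here. The hippocampi came from 10 male ICR mice aged 9 to 10 weeks, 2 per group. Pre-SE mice are labelled untreated and per the study's methods received saline in place of pilocarpine (PILO), while its results call them naive. Whether they received methyl scopolamine or diazepam is not clear from the study. In the other 8 mice, PILO given after methyl scopolamine induced SE, which was counted from 5 convulsive seizures on and was ended with diazepam (DZP). SE 6 h and SE 2 days mice received no LEV. SE + LEV 6 h mice had received oral LEV 1 time and SE + LEV 2 days mice 5 times, with the first dose within 30 min after DZP. No group received LEV without SE. PILO cannot be told apart from the seizures in any comparison with pre-SE, and neither can methyl scopolamine and DZP if pre-SE mice did not receive them. Mice with the same number in different groups are different animals.

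The tag totals on the listed genes, estimated from the steps of the CPM values, ran from 10540698 to 51710968 with a median of 26671413, so that 3 tags corresponded to 0.058 to 0.285 CPM. Neuronal markers were abundant in every library, the summed CPM of 7 measured pan-neuronal markers being 6437 to 10170. Markers of the choroid plexus, a tissue next to the hippocampus, ran from 8.72 to 4025 summed CPM with 868.7 or more in 4 libraries (pre-SE mouse 2, SE 6 h mouse 2, SE + LEV 6 h mouse 1, SE + LEV 2 days mouse 1) and 67.85 or less in the other 6. Of 6 genes in a list of striatum markers, *Drd2* and *Adora2a*, which mark neurons of the indirect pathway, stayed at or below 0.38 CPM, while *Ppp1r1b* had 31.76 to 106.09 CPM, *Rgs9* 6.92 to 20.25 and *Drd1a* 4.6 to 16.86. Called differences from pre-SE are also given without pre-SE mouse 2.

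Of the subunit genes, 3 lie on chromosome 2, 3 on chromosome 9 and 1 on chromosome 15 of the mm9 assembly. *Scn3a* (65295175 to 65405684, minus strand) and *Scn2a1* (65458914 to 65605504, plus strand) are transcribed away from each other on chromosome 2, with 53230 bases between their starts, and *Scn1a* follows at 66108838 to 66278897 on the minus strand. On chromosome 9, *Scn3b* occupies 40076801 to 40099203, *Scn2b* 44925959 to 44938153 and *Scn4b* 44946520 to 44962235, all on the plus strand, so that *Scn4b* begins 8366 bases beyond the end of *Scn2b*. *Scn8a* occupies 100785829 to 100876360 on the plus strand of chromosome 15. A gene model on the opposite strand overlaps *Scn1a*, *Scn3a* and *Scn2b* (*Gm13630*, *Gm13595* and *Gm10684*), and whether strand was used when tags were summed to genes is not given in the sources used here.

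Because CAGE tags mark starts of transcription, the sequence before the start is shown for 3 genes. These are *Scn4b*, the subunit with the widest range of levels, its chromosome 9 neighbor *Scn2b*, and *Scn8a*, the subunit with the lowest listed CPM. Each run is the 250 bases before a RefSeq start (table of assembly GRCm38.p6), read on the plus strand and placed in mm9 by an exact, unique match. CG dinucleotides are in capitals.
Scn4b, chr9:44946457-44946706: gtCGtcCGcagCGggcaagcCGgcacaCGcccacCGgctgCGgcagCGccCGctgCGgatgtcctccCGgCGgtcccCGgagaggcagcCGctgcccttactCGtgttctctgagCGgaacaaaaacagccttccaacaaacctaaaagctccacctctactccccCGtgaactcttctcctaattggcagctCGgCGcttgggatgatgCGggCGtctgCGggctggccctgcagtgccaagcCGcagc
Scn2b, chr9:44925709-44925958: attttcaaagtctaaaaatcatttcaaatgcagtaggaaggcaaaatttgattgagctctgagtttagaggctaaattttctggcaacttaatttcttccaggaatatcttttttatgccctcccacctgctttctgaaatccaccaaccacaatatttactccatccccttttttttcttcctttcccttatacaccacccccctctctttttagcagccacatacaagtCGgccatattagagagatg
Scn8a, chr15:100700826-100701075: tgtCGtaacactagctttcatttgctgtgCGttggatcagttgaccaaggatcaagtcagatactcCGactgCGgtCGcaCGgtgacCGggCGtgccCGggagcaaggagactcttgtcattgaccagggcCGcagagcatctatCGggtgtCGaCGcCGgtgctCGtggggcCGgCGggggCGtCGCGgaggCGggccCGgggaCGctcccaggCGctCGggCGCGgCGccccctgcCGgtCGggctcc

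The 3 windows differ in base composition. The *Scn4b* window holds 23 CG dinucleotides at 66.0% G + C, more CG than 86.7% of the 32851 RefSeq windows of the same length, and the *Scn8a* window holds 30 at 68.0%. The *Scn2b* window holds 1 at 38.4% G + C, and only 7.9% of windows have fewer. The median over all windows was 6. *Scn1a* had 4 at 46.8%, more CG than 37.8% of windows. *Scn2a1* had 2 at 29.6% at its first start and 9 at 53.2% at its second. RefSeq windows were matched for 5 of the 7 genes, and *Scn3a* and *Scn3b* were not matched. Motifs bound by activity-dependent factors (AP-1, CREB and Egr) and by the repressor of neuronal genes REST (RE1) were searched on both strands. The AP-1 motif TGAGTCA (4.46% of all windows) and the CRE motif TGACGTCA (1.55%) had no match in the 7 windows of the 5 genes. The RE1 core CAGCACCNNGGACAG (0.0335%) had none either. These exact strings are rare, so their absence from 7 windows does not show that the genes lack such sites. The Egr motif GCGGGGGCG or GCGTGGGCG (3.06%) matched 1 time, in the *Scn8a* window printed above, 75 bases before the start. It overlaps CG dinucleotides, and a match is no evidence of binding.

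Position also matters for how *Scn8a* was measured. The first RefSeq start of *Scn8a* lies 84753 bases and the second 19127 bases upstream of the gene model under which its CPM is listed, whereas the start of *Scn1a* lies 3 bases from that of its model, that of *Scn2b* at the same base, and those of *Scn2a1* (first start) and *Scn4b* within 187 bases. A second model with the name *Scn8a*, at 100763860 to 100771229, has no listed CPM, and the second RefSeq start lies within it. The tags of *Scn8a* numbered 1 to 7 per library. Whether tags at the RefSeq starts were assigned to this row is not given in the sources used here, so its CPM cannot be read as the level of all *Scn8a* transcripts.

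**Figure D1:**
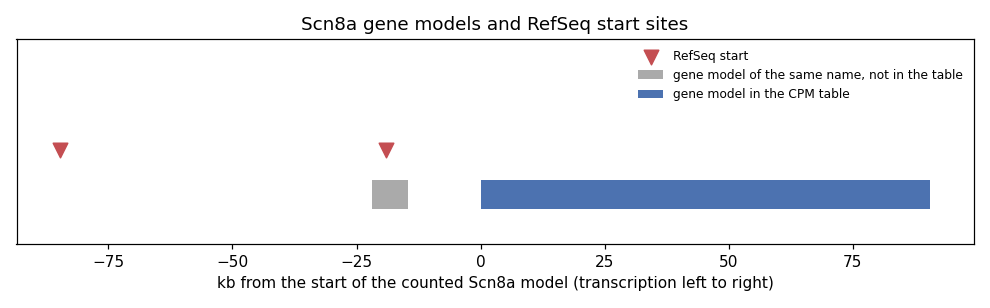
Annotated models of Scn8a in mm9, drawn as distance in kb from the start of the model whose CPM is listed (blue), with the second model of the same name (gray) and the 2 RefSeq starts (red triangles). Both RefSeq starts lie upstream of the blue model, at 84.8 and 19.1 kb.

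In pre-SE hippocampi, *Scn2b* and *Scn3b* had the highest listed CPM of the members. The mean ± SD of 2 mice was 172.5 ± 31.7 CPM for *Scn2b* and 164.4 ± 1.78 CPM for *Scn3b*, which did not differ beyond their spread. *Scn2a1* followed at 137.5 ± 6.01 CPM and *Scn1a* at 80.42 ± 4.84 CPM. *Scn3a* had 28.15 ± 2.5 CPM and *Scn4b* 14.28 ± 2.92 CPM, so that the beta4 gene had the lowest listed CPM of the beta genes. *Scn8a* had 0.17 ± 0.099 CPM. As a share of the summed listed CPM of the 4 alpha genes, *Scn2a1* made up 55.5% to 56.2% and *Scn1a* 32.0% to 33.2% in these mice. Because the *Scn8a* row may leave out most of its transcripts, these shares do not give the make-up of all alpha transcripts. Across all 10 mice, *Scn2a1* ranged from 42.3% to 57.6%, *Scn1a* from 29.0% to 49.6%, and *Scn3a* from 7.82% to 14.3%. *Scn1a* exceeded *Scn2a1* in 1 mouse, SE 6 h mouse 2. Among the beta genes, *Scn2b* held 45.5% to 56.3%, *Scn3b* 40.2% to 51.2% and *Scn4b* 1.66% to 4.96%. The lowest *Scn4b* shares were those of the SE + LEV 2 days mice, 2.16% and 1.66%, against 2.88% to 4.96% in the other 8 mice.

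**Figure D2:**
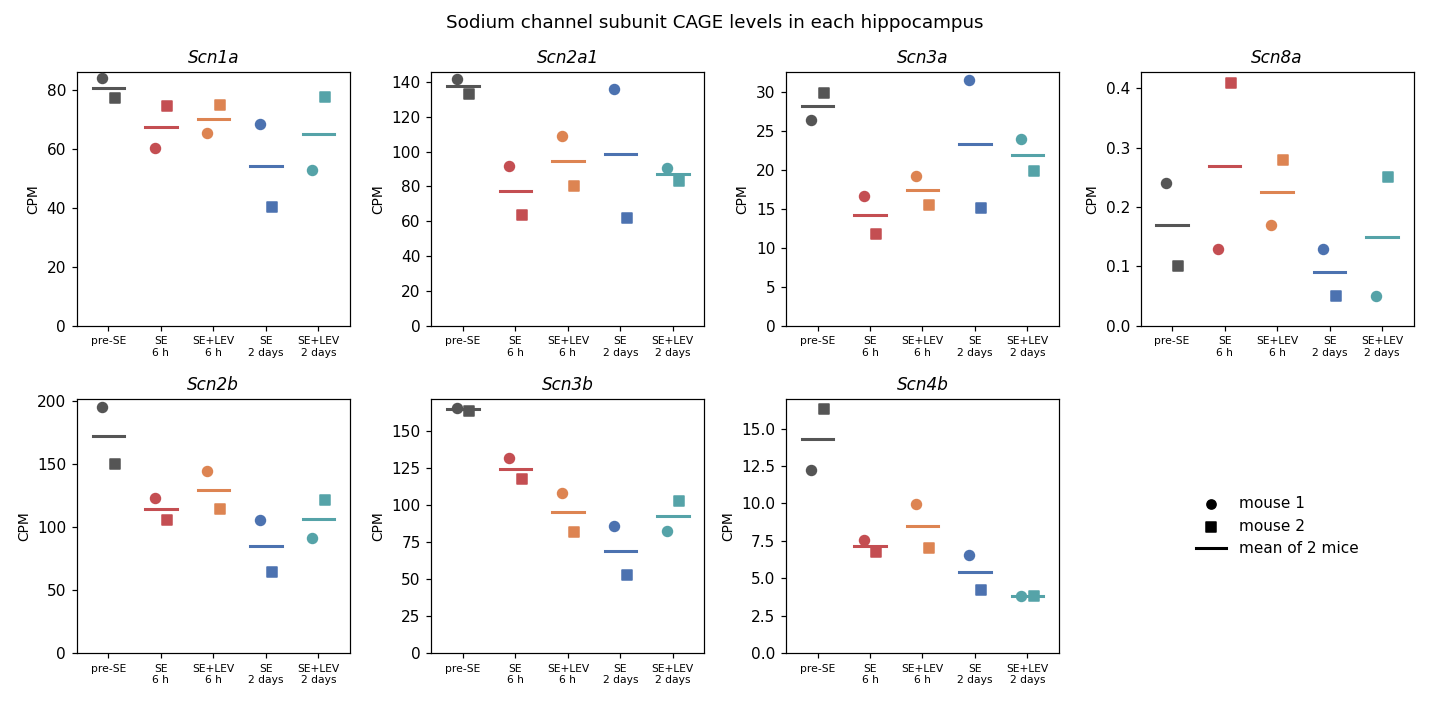
CPM of each subunit gene (1 panel per gene, y axes start at 0 and differ) in every mouse, by group. Circles are mouse 1, squares mouse 2, and bars the mean of 2 mice. Scn2b, Scn3b and Scn4b of all 8 mice after SE lie below both pre-SE mice, and the share of all genes that do so was not computed.

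The alpha subunits are described first. *Scn1a* had 83.84 and 77 CPM before SE, 60.36 and 74.41 at 6 h, 65.39 and 74.76 at 6 h with LEV, 68.26 and 40.26 at 2 days, and 52.9 and 77.34 at 2 days with LEV. SE + LEV 2 days mouse 2 lay between the pre-SE values and all others lay below them. *Scn2a1* had 141.78 and 133.28 CPM before SE, 91.76 and 63.38 at 6 h, 109.18 and 80.17 at 6 h with LEV, 135.76 and 61.76 at 2 days, and 90.8 and 83.21 at 2 days with LEV. The SE 2 days mice stood far apart, mouse 1 being within the pre-SE range and mouse 2 having the lowest value of all. *Scn3a* showed the same division, with 31.59 and 15.14 CPM in the SE 2 days mice, the first above both pre-SE mice (26.38 and 29.92). It had 16.71 and 11.72 CPM at 6 h, 19.24 and 15.56 at 6 h with LEV and 23.94 and 19.92 at 2 days with LEV. *Scn8a* ran from 0.05 to 0.41 CPM without any group standing apart, and 4 libraries had 3 tags or fewer.

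The beta subunits showed the lower levels after SE more evenly. *Scn2b* had 194.89 and 150.08 CPM before SE, 122.94 and 105.18 at 6 h, 144.14 and 114.22 at 6 h with LEV, 105.91 and 64.57 at 2 days, and 91.31 and 121.04 at 2 days with LEV. All 8 mice after SE lay below both pre-SE mice. The share of all genes with this pattern was not computed. Among neuronal markers *Camk2a*, *Syp* and *Syt1* showed it too, while *Rbfox3* and *Snap25* did not. *Scn3b* had 165.68 and 163.16 CPM before SE, 131.41 and 117.24 at 6 h, 108.15 and 81.59 at 6 h with LEV, 85.77 and 52.54 at 2 days, and 82.57 and 102.4 at 2 days with LEV. Its group means were highest before SE and lowest in SE 2 days mice (69.16 ± 23.5), and those of SE + LEV 6 h (94.87 ± 18.8) and SE + LEV 2 days (92.48 ± 14.0) did not differ beyond their spread. *Scn4b* had 12.21 and 16.34 CPM before SE, 7.54 and 6.78 at 6 h, 9.93 and 7.02 at 6 h with LEV, 6.57 and 4.2 at 2 days, and 3.84 and 3.78 at 2 days with LEV. Its range of group means, 1.86 on the log2 scale, was the widest of the 7 genes.

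At 2 days after SE, *Scn3b* and *Scn4b* fell against pre-SE. *Scn3b* fell by 59.1% (logFC -1.29, standard error 0.27, limma adjusted p = 0.0207) and *Scn4b* fell by 62.35% (logFC -1.41, standard error 0.34, limma adjusted p = 0.0404). LogFC is the difference of log2(CPM + 0.1), p-values are two-sided from a limma model of all 10 libraries and were adjusted over the 15851 genes, and genes at 0.05 or less are called. Thus 2 of the 7 subunit genes were called lower and 0 higher, where 0.593% of all genes were called lower. *Scn2b* had a logFC of -1.05 (standard error 0.29) and missed the threshold at an adjusted p of 0.0619. None of the alpha genes was called, *Scn1a* having a logFC of -0.61, *Scn2a1* -0.59, *Scn3a* -0.36 and *Scn8a* -0.49, with adjusted p of 0.278 to 0.723. The median logFC was -1.29 over the beta genes, -0.54 over the alpha genes and -0.03 over all genes tested. Both SE 2 days mice lay below both pre-SE mice for 4 of 7 genes, *Scn1a*, *Scn2b*, *Scn3b* and *Scn4b*, against 25.6% of all genes.

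These calls depend on single mice. SE 2 days mouse 2 had the lowest CPM of its group for all 7 genes, and without it the logFC was -0.94 for *Scn3b* (adjusted p = 0.199) and -1.09 for *Scn4b* (0.324), with 0 genes called. Without SE 2 days mouse 1 they were -1.64 (0.0187) and -1.73 (0.045), and *Scn2b* was called too (-1.40, 0.0384). Without pre-SE mouse 2, which had high choroid plexus markers, *Scn3b* had a logFC of -1.30 (adjusted p = 0.0922) and *Scn4b* -1.20 (0.204), and without pre-SE mouse 1 -1.28 (0.121) and -1.62 (0.124). The call of *Scn4b* was also lost without SE 6 h mouse 1 (0.0604) or mouse 2 (0.0598), which enter only through the shared spread. With 2 mice against 2, the smallest p an exact permutation test can give is 0.333, so that the calls rest on the spread that limma shares across genes and groups.

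**Figure D3:**
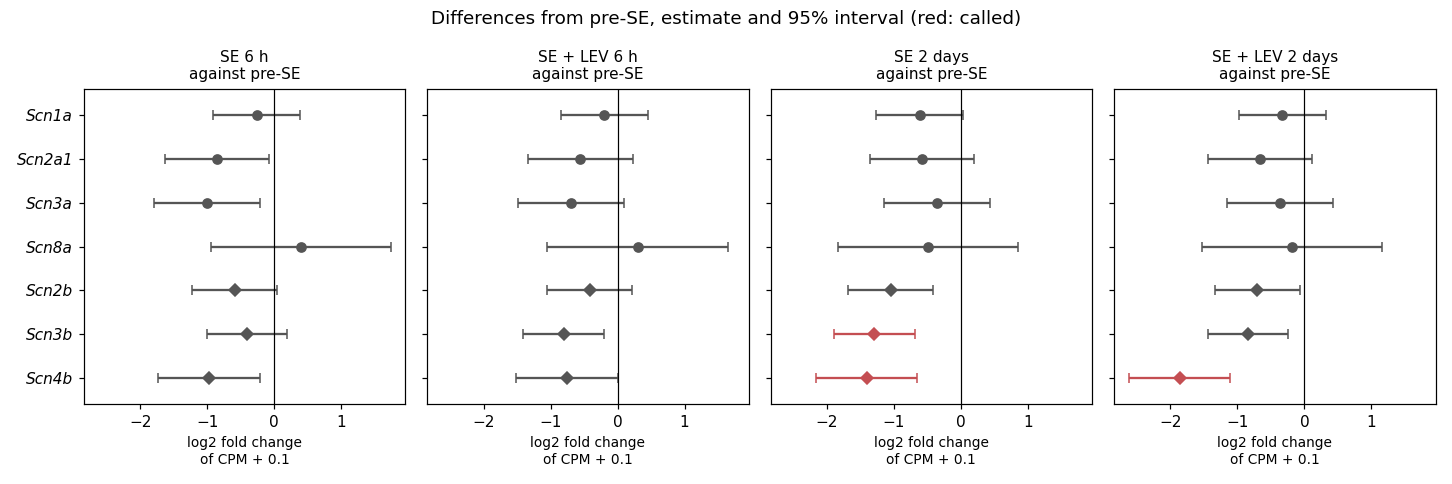
Difference of each subunit gene from pre-SE, as the log2 fold change of CPM + 0.1 (x axis), in 4 groups after SE; points are limma estimates (circles alpha, diamonds beta), bars 95% intervals, and red marks an adjusted p of at most 0.05. The red points are Scn3b and Scn4b at SE 2 days and Scn4b at SE + LEV 2 days.

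At 6 h after SE, 0 of the 7 genes were called by limma, while 3 had an unadjusted p under 0.05, all lower. These were *Scn3a* (logFC -1.0, standard error 0.36, adjusted p = 0.185), *Scn4b* (-0.97, standard error 0.34, adjusted p = 0.18) and *Scn2a1* (-0.85, standard error 0.35, adjusted p = 0.242). Over all genes, 0.202% were called lower at 6 h, and 1349 had an unadjusted p under 0.05 in this direction. *Scn2b* had a logFC of -0.59, *Scn3b* -0.41, *Scn1a* -0.26 and *Scn8a* 0.39. In 6 of 7 genes both SE 6 h mice lay below both pre-SE mice, as did 31.3% of all genes. The median logFC of the 7 genes was -0.59 beside -0.13 over all genes. Scaling by the median of ratios in place of the library total moved the median of all genes to -0.0047 and left each of these 6 genes below 0 (*Scn3a* -0.87, *Scn4b* -0.85, *Scn2a1* -0.72, *Scn1a* -0.13). Without pre-SE mouse 2, *Scn3a* had a logFC of -0.91, *Scn4b* -0.76 and *Scn2a1* -0.89, with limma adjusted p of 0.522 to 0.568.

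The direct comparison of SE 2 days with SE 6 h called 0 of the 7 genes, with 1.11% of all genes called lower. *Scn3b* came nearest, at a logFC of -0.89 (standard error 0.27) with a limma adjusted p of 0.103, and was the 1 member with an unadjusted p under 0.05. *Scn3b* and *Scn4b* were the 2 genes whose groups did not overlap, both lower at 2 days, where 51.1% of all genes did not overlap in either direction. *Scn3a* (0.64) and *Scn2a1* (0.26) had estimates above 0, with intervals of -0.15 to 1.43 and -0.51 to 1.04. A later level of these alpha genes different from that at 6 h was thus not shown.

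Mice that received LEV after SE were compared with pre-SE in the same model. In SE + LEV 2 days mice *Scn4b* fell by 72.5% against pre-SE (logFC -1.86, standard error 0.34, limma adjusted p = 0.0159), and it was the 1 of 7 genes called, with 0.0189% of all genes called lower. The call was lost without pre-SE mouse 1 (adjusted p = 0.0744), pre-SE mouse 2 (0.146) or SE + LEV 2 days mouse 1 (0.111), of which the last 2 had high choroid plexus markers, while the logFC stayed between -2.07 and -1.65. *Scn3b* (-0.84, adjusted p = 0.198) and *Scn2b* (-0.70, adjusted p = 0.376) were lower without passing the test. In 5 of 7 genes, all but *Scn1a* and *Scn8a*, both of these mice lay below both pre-SE mice, against 17.5% of all genes. In SE + LEV 6 h mice 0 genes were called, with 0.00631% of all genes called lower, and 1 had an unadjusted limma p under 0.05, *Scn3b* (logFC -0.81, adjusted p = 0.341, and -0.82 and 0.864 without pre-SE mouse 2). All genes but *Scn8a* lay below both pre-SE mice (6 of 7, against 25.5% of all genes). The 4 comparisons share the pre-SE mice, so their values are not independent of each other.

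The effect of LEV is the comparison of SE + LEV with SE at the same time. At 6 h, 0 of 7 genes were called by limma, 0 had an unadjusted p under 0.05, and 0.0126% of all genes were called. Of the members, *Scn3b* had the estimate farthest from 0, -0.40 (95% interval -1.0 to 0.20), and was lower in both SE + LEV 6 h mice than in both SE 6 h mice, in contrast to the other 6 genes, whose groups overlapped, where 29.5% of all genes did not overlap. *Scn3a* had 0.30 (-0.49 to 1.10), *Scn2a1* 0.29 (-0.48 to 1.07), *Scn4b* 0.22 (-0.54 to 0.98), *Scn2b* 0.17 (-0.46 to 0.81), *Scn1a* 0.06 (-0.59 to 0.71) and *Scn8a* -0.10 (-1.44 to 1.25). At 2 days, 0 of 7 genes were called, 0 had an unadjusted limma p under 0.05, and 0% of all genes were called, with 220 lower and 208 higher at an unadjusted p under 0.05. *Scn4b* was lower in both SE + LEV 2 days mice than in both SE 2 days mice (logFC -0.45, interval -1.21 to 0.31), and the other 6 genes overlapped, where 27.4% of all genes did not overlap. *Scn3b* had an estimate of 0.45 (-0.15 to 1.05), *Scn2b* 0.35 (-0.29 to 0.98), *Scn8a* 0.30 (-1.04 to 1.65), *Scn1a* 0.29 (-0.36 to 0.94), *Scn3a* 0.00 (-0.80 to 0.79) and *Scn2a1* -0.08 (-0.85 to 0.70). These intervals still hold differences of more than 0.5 in at least 1 direction for every member, so that LEV-treated and untreated mice were not shown to be alike.

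The estimates of *Scn3b* with LEV had opposite signs at 6 h and 2 days, and the difference between them, 0.85 (standard error 0.38, interval 0.01 to 1.70), had an unadjusted limma p of 0.0482 and an adjusted p of 1.0. For *Scn4b* the difference was -0.68 (interval -1.75 to 0.40). Of all genes, 0% were called in this test, and 126 had an unadjusted p under 0.05 below 0 and 251 above. *Scn3b* was the 1 member of 7 with an unadjusted limma p under 0.05.

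**Figure D4:**
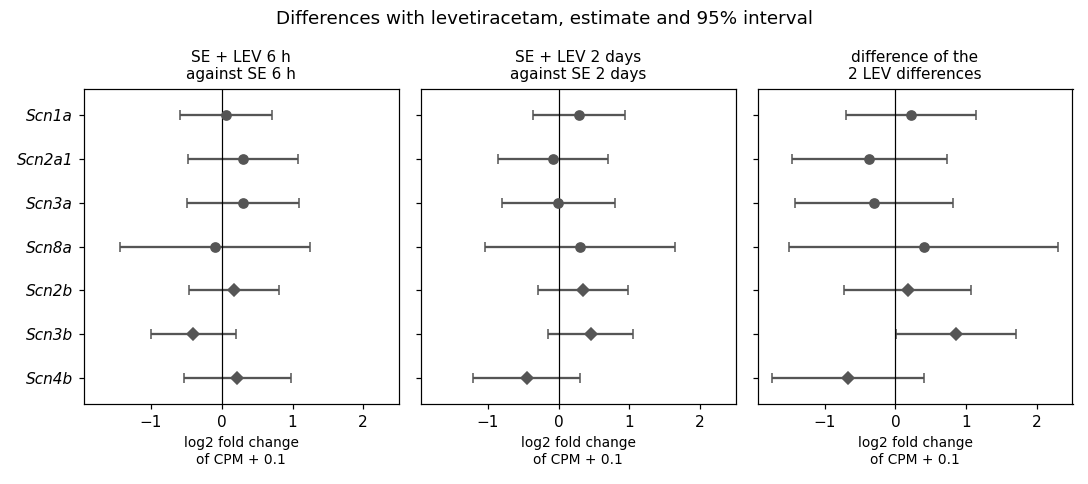
Difference of each subunit gene between SE + LEV and SE mice at 6 h and at 2 days, and the difference between these differences (2 days minus 6 h), as log2 fold changes of CPM + 0.1; points are limma estimates (circles alpha, diamonds beta) and bars 95% intervals. Every interval but that of Scn3b in the right panel (0.01 to 1.70) includes 0, and no point passed the adjusted threshold.

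The levels of neuronal markers were examined beside those of the subunits. In whole hippocampus, fewer neurons and less RNA per neuron cannot be told apart. The summed CPM of 7 pan-neuronal markers was 10170 and 9278 before SE, 8960 and 6902 at 6 h, 9320 and 7501 at 6 h with LEV, 7667 and 6437 at 2 days and 6731 and 6827 at 2 days with LEV. Against pre-SE, 7 of 7 had estimates below 0 at 2 days, with a median logFC of -0.51 and 0 called. The 6 markers of excitatory neurons had a median of -0.75 at 2 days, all below 0 and 0 called, and the 6 interneuron markers -0.25. At 6 h the 3 medians were -0.12, -0.28 and 0.04. The beta subunit median at 2 days (-1.29) was farther below 0 than these, but that difference was not tested. The medians also hide a wide spread among the excitatory markers. *Camk2a* had 3393.51 and 3646.54 CPM before SE and 1841.91 and 1127.19 at 2 days, and *Neurod6* 223.58 and 182.63 against 139.87 and 48.38. *Prox1* had 59.15 and 56.12 CPM against 64.28 and 39.36. A fall of the beta genes beyond that of neuronal genes was thus not shown. Before SE the summed beta CPM was 372.8 and 329.6, against 198.2 and 121.3 at 2 days. The summed alpha CPM, with *Scn8a* as listed, was 252.2 and 240.3 against 235.7 and 117.2. Of 6 astrocyte markers, 2 rose at 2 days and 3 had estimates below 0, where 5.07% of all genes were called higher. *Gfap*, a marker of reactive astrocytes, had a logFC of 3.60 (limma adjusted p = 0.000955), and 3.55 without pre-SE mouse 2 (0.00676). With median-of-ratios scaling in place of library totals, *Scn3b* had a logFC of -1.27 (limma adjusted p = 0.0224) and *Scn4b* -1.39 (0.0442) at 2 days. The part of neuronal and glial markers in the subunit differences was not tested.

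**Figure D5:**
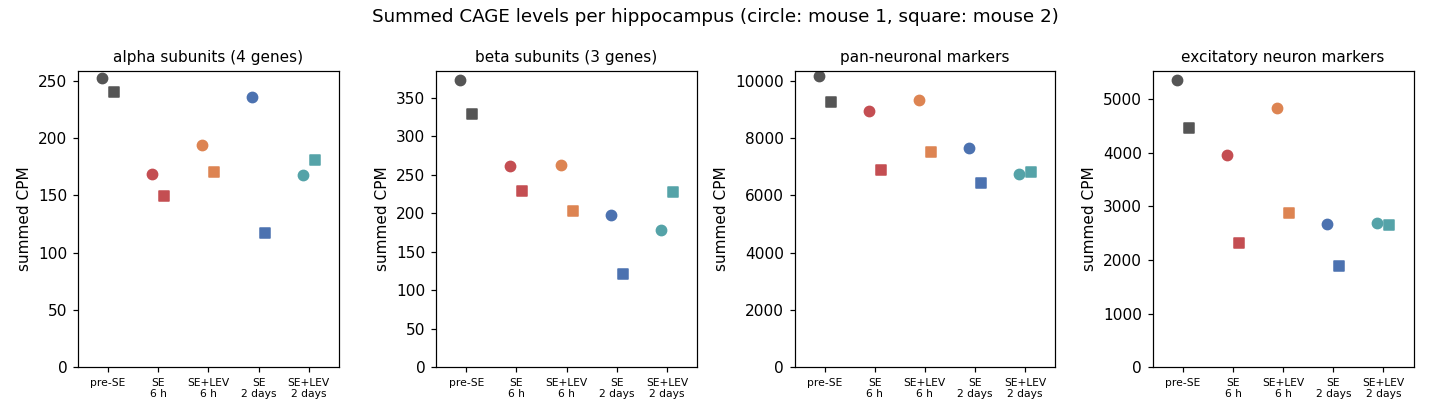
Summed CPM of the 4 alpha and 3 beta subunit genes and of the measured pan-neuronal and excitatory neuron markers in every mouse, by group (y axes start at 0; circle mouse 1, square mouse 2). The summed beta CPM of all 8 mice after SE (121.3 to 262.2) lies below both pre-SE mice, and the share of all genes that do so was not computed. The alpha sum takes Scn8a at its listed CPM.

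Other sodium channel and leak channel genes did not pass the test in any comparison. Of 10 such genes, 7 were measured, and *Scn4a*, *Scn10a* and *Scn11a*, channels of muscle and sensory neurons, were not analysed here. *Nalcn*, the sodium leak channel, had 61.15 and 54.98 CPM before SE and 37.9 and 32.62 CPM at 2 days (logFC -0.72, standard error 0.21, adjusted p = 0.0847). *Scn7a* and *Scn9a*, mainly of glia and sensory neurons, did not exceed 0.97 CPM in any library.

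The fibroblast growth factor homologous factors are intracellular partners that bind the tail of alpha subunits and set inactivation. *Fgf13* fell at 2 days (logFC -1.06, standard error 0.25, limma adjusted p = 0.0375), from 299.32 and 264.43 CPM to 157.72 and 114.58 CPM. It was the 1 of 4 called, where 0.593% of all genes were called lower. Without pre-SE mouse 2 its logFC was -1.15 and the call was lost (limma adjusted p = 0.109). *Fgf14* had 90.29 and 90.17 CPM before SE and 54.48 and 29.66 CPM at 2 days (logFC -1.16, adjusted p = 0.0597). With LEV at 2 days *Fgf14* had 56.9 and 84.36 CPM and *Fgf13* 160.28 and 179.53 CPM, and neither was called against SE or pre-SE. *Fgf12* stayed between 2.33 and 4.49 CPM and *Fgf11* between 0.89 and 2.08 CPM, with logFC of -0.65 and 0.64 at 2 days. The median over the 4 genes was -0.21 at 6 h and -0.86 at 2 days. Of the scaffold of the axon initial segment and node, 5 of 6 genes were measured (*Ank3*, *Nfasc*, *Nrcam*, *Cntn1* and *Trim46*), and 0 were called in any of the 7 comparisons, with medians against pre-SE of -0.40 (6 h) and -0.29 (2 days). *Ank3* encodes ankyrin-G, which anchors the channels at the initial segment, and had logFC of 0.34 and -0.36. Of 9 regulators, among them the calmodulin genes, *Nedd4l*, which ubiquitinates channels, and *Bace1*, which cleaves beta subunits, 0 were called, with medians of -0.21 and -0.07. Differences between the lists were not tested.

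The pattern of *Scn4b* over the 10 libraries was compared with that of 14220 genes with a mean of at least 1 CPM by Pearson's correlation of log2(CPM + 0.1). The libraries share their groups, so the values describe likeness only. Among the most like were *Fxyd7* (0.965), *Sh3gl2* (0.942), *Hhatl* (0.932) and *Gucy1a3* (0.923). *Fxyd7*, a small regulator of the sodium pump, went from 73.11 and 93.6 CPM before SE to 50.92 and 29.8 CPM at 2 days. The most opposite were *Jak3* (-0.934), *Tgfb1* (-0.927), *Klhl6* (-0.92), *Vim* (-0.917) and *Fhod1* (-0.917). *Vim*, an intermediate filament of reactive glia, went from 18.86 and 14.68 CPM to 367.9 and 736.54. Of the other members with at least 1 CPM, *Scn2b* (0.767) and *Scn3b* (0.761) were most like *Scn4b*, followed by *Scn2a1* (0.657), *Scn1a* (0.55) and *Scn3a* (0.347), so that both other beta genes ranked above the 3 alpha genes.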

How the data were processed

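CAGE libraries of 10 mouse hippocampi were used. Tags were mapped by the authors to mm9 using BWA 0.7.17, then HISAT2 2.0.5 for those left, clustered with RECLU and kept in clusters of 0.1 CPM or more. The authors deposited CPM per gene, and the processing notes also name bedtools 2.12.0 and edgeR 3.22.5. Tags with no gene and the summing of clusters to genes are not described in the sources used here. Tag totals were recovered from the CPM (100% of values whole within rounding). A separate check did not accept them as whole reads in 7 of 10 libraries, so tag numbers are estimates, used for depth only. Genes reaching 0.1 CPM in 2 or more libraries (15851) were tested on log2(CPM + 0.1) with limma 3.58.1 in R 4.3.3 (5 group means, mean-variance trend, Benjamini-Hochberg). On simulated SE 6 h and pre-SE data (15685 genes), 41 of 100 genes changed by 1 on the log2 scale and 99 of 100 changed by 2 were called, with 5 false calls. Every simulated gene had the same relative spread between mice beyond counting, mice did not differ in dissection, and genes of low CPM were not changed. These rates therefore need not hold for the real libraries. Gene models were GENCODE vM1 on mm9. Tables and figures used Python 3.11.15, pandas 2.3.3 and matplotlib 3.10.9. All 7 members were named, with the genes of the fixed lists that were called (any member could be named where a list has at most 6 genes), and the 5 genes most like and most opposite to the member of widest range. A few genes that the rule picks are left out of the text. The members and lists were chosen with earlier results of these data known, as were the motifs searched. The alternatives were other pseudocounts (0.01, 0.5 and 1), no filter, a filter of 1 CPM, median-of-ratios scaling, a replicate block, no trend, only the groups compared, and each mouse left out.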

Additional observations from a re-analysis of the deposited data

How the results depend on the processing

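For the 7 genes in the 7 comparisons between groups, 938 logFC values were computed under the alternatives, of which 903 kept both direction and side of the threshold, 20 changed sign, 14 lost a call and 1 gained one. At 2 days against pre-SE, the number of called subunit genes, 2 in the full model, was 1 with a replicate block, 1 with only the groups compared, and 0 to 3 with each mouse left out. It was 0 without pre-SE mouse 1, pre-SE mouse 2 or SE 2 days mouse 2, and 3 without SE 2 days mouse 1. For SE + LEV 2 days against pre-SE, the 1 call became 0 with only the groups compared and ranged from 0 to 1 with a mouse left out. The numbers of called members in the other comparisons were 0 under every alternative run. The replicate block is no pairing, since same-numbered mice are different animals, and the correlations of their deviations between groups compared ran from -0.436 to 0.343. In that block *Scn4b* at 2 days had an adjusted p of 0.0517, and with only the groups compared 0.0727. A block with the SE + LEV 2 days numbers crossed, added after seeing the data, called 0 members against SE 2 days and 1 against pre-SE.

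All sign changes came from leaving out 1 mouse, and the estimates then had these lowest and highest values. *Scn8a* had -0.18 and 0.97 at SE 6 h against pre-SE, -0.0861 and 0.68 at SE + LEV 6 h against pre-SE, and -0.80 and 0.43 at SE + LEV 2 days against pre-SE. *Scn3a* had -0.89 and 0.17 at SE 2 days against pre-SE. For LEV at 6 h, *Scn8a* had -0.67 and 0.48, *Scn4b* -0.026 and 0.47, and *Scn1a* -0.0897 and 0.21. For LEV at 2 days, *Scn8a* had -0.31 and 0.91, *Scn3a* -0.53 and 0.53, *Scn1a* -0.0936 and 0.67, *Scn2b* -0.0107 and 0.70, and *Scn2a1* -0.64 and 0.49. For SE 2 days against SE 6 h, *Scn1a* had -0.73 and 0.0264 and *Scn2a1* -0.30 and 0.83. The cause was not tested. Count tests with edgeR and DESeq2 were planned and not run, because a check of the CPM, which are rounded to 2 decimals, did not accept the recovered tags as whole reads in 7 of 10 libraries. The low tag number limits *Scn8a* most, whose 1 to 7 tags per library cannot show a difference.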

Other observations

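Marker genes of other cells in the same libraries gave the following values. Of 6 astrocyte markers, *Aqp4*, the water channel, rose at 2 days against pre-SE beside *Gfap* (logFC 1.57, limma adjusted p = 0.0107), from 37.35 and 33.65 CPM to 89.08 and 124.56 CPM, and the call was lost without pre-SE mouse 2 (logFC 1.49, adjusted p = 0.0687). The other 4 were not called, and *Slc1a2* (-0.93), *Slc1a3* (-0.73) and *Gja1* (-0.98) had logFC below 0. Of 6 microglia markers, *P2ry12* (logFC -2.51) and *Tmem119* (-2.50) fell at 6 h, with limma adjusted p of 0.0121 and 0.00475, and of 0.0413 for both without pre-SE mouse 2, where 0.202% of all genes were called lower. At 2 days *Aif1* (2.28) and *C1qa* (2.93) rose, with limma adjusted p of 0.00303 and 0.00151, where 5.07% of all genes were called higher. Without pre-SE mouse 2 their logFC were 2.7 and 3.0. *P2ry12* was the 1 of 6 markers with an estimate below 0 (logFC -0.93) and was not called. *Tmem119* was not called at 2 days either, with 36.38 and 30.76 CPM against 14.07 and 15.47 CPM before SE. The oligodendrocyte markers, 6 of 6 below 0 at 2 days with a median logFC of -1.19, gave 0 calls. *Drd1a*, the dopamine D1 receptor gene in the list of striatum markers, rose at 2 days (logFC 1.49, limma adjusted p = 0.0407), with 15.05 and 16.86 CPM against 6.83 and 4.6 CPM, and the call was lost without pre-SE mouse 2 (1.21, adjusted p = 0.199).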
